A study of Bos taurus with 24 samples.

Results

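The mammary miRNomes of Holstein (HOLS) and Montbéliarde (MONT) cows were compared before any feed restriction. HOLS is a breed selected for dairy yield, and MONT is a French breed kept for milk and meat. The libraries concerned are the control (CONT) libraries of 5 HOLS and 6 MONT cows, 11 of the 22 libraries with counts, and they were taken by breed and period as the labels give them. All cows were multiparous, in midlactation and fed a total mixed ration without limit, and a biopsy of the rear mammary gland was taken on day 0. No cow had been restricted at that time, and the second biopsy of the same cows, taken after 6 days of restriction (REST), is used here only for values set beside those of CONT. Another HOLS cow in the labels was not analysed here. Each library is 1 cow, and a biopsy holds all cells of the tissue. The paper reports MONT libraries of lower quality, with more short reads and adapters, and a lower energy balance of MONT cows before restriction. Breed cannot be told apart from these, or from any other trait in which these 5 cows differed from these 6.

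MicroRNAs (miRNAs) are short RNAs that pair with messenger RNAs and reduce their stability or translation. Many are made together from a common transcript, as a cluster, or share the seed by which they pair with their targets, as a family. In the lactating gland the secretory epithelium is known for abundant miR-148a, miR-30 and miR-200 family members. The stroma and the smooth muscle of vessels bring miR-143 and miR-199, and leukocytes bring miR-142 and miR-146. A level measured in a biopsy is therefore the sum over these cells, and fewer cells of a type and less RNA per cell cannot be told apart.

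At CONT, 2 miRNAs differed between the breeds, and both were higher in HOLS. They were miR-16a, a member of the family that restrains cyclins and BCL2, and miR-186, which lies within the gene ZRANB2. Both were about 1.7-fold higher, with a log2 fold change of HOLS over MONT of 0.77 (SE 0.142) for miR-16a and 0.75 (SE 0.148) for miR-186. No miRNA passed the threshold with a higher level in MONT. These 2 miRNAs are 0.556% of the 360 tested, by edgeR's quasi-likelihood test with a Benjamini-Hochberg adjusted p of at most 0.05. An unadjusted p under 0.05 was found for 73 miRNAs or 20.3% of those tested, 31 (8.61%) with a higher level in HOLS and 42 (11.7%) with a higher level in MONT. The 5 HOLS values all lay above or all lay below the 6 MONT values for 11 miRNAs, or 3.06%.

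**Figure D1:**
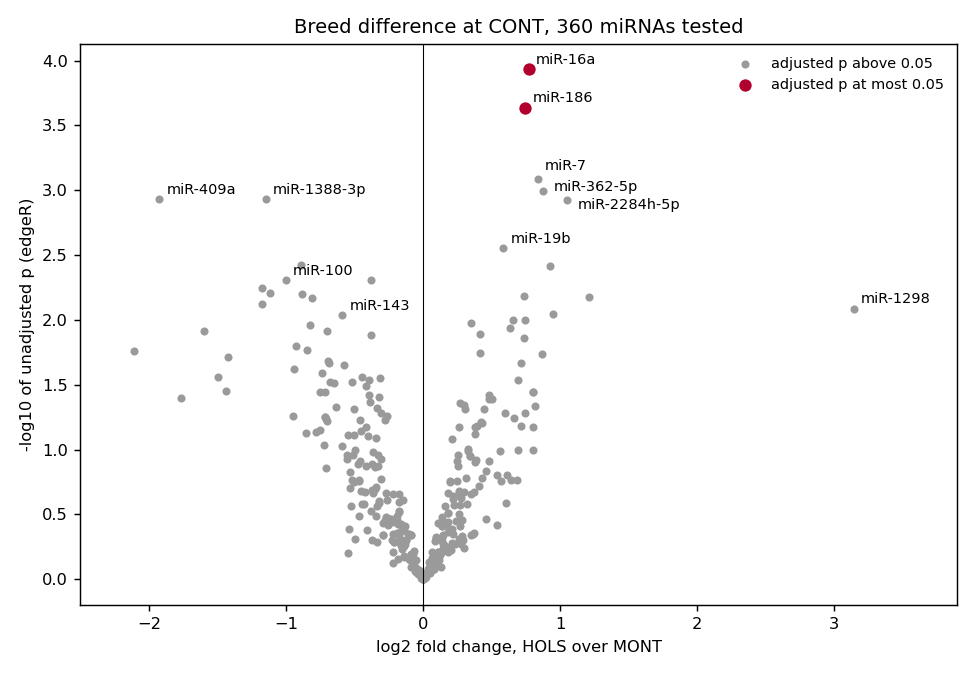
Log2 fold change of HOLS over MONT at CONT (x axis) against −log10 of the unadjusted edgeR p (y axis) for the 360 miRNAs tested, with the 2 miRNAs past the adjusted threshold in red. Both red points lie right of 0, at 0.77 and 0.75, and miR-1298 lies farthest to the right, at 3.15.

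Most log2 fold changes were small. The log2 fold change was within 0.5 of 0 for 268 of the 360 miRNAs (74.4%), with a median of −0.01 over all of them, 174 above 0 and 186 below. A log2 fold change beyond 1 was found for 15 miRNAs, 3 of them above 1 and 12 below −1. The median SE was 0.25 on the log2 scale. No miRNA had counts in every library of a breed and in none of the other. The 51 miRNAs counted only in HOLS and the 47 counted only in MONT reached at most 6 counts in a library.

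The total of miRNA counts per library lay between 7431936 and 16808976 in HOLS and between 6087865 and 11395785 in MONT. The 360 miRNAs tested held 99.99% of the counts. MONT cows were less alike than HOLS cows: Pearson's r of log2 normalized counts across miRNAs was 0.986 to 0.994 for pairs of HOLS libraries and 0.955 to 0.986 for pairs of MONT libraries, and the common biological coefficient of variation was 0.216 within HOLS and 0.357 within MONT. This difference in spread between the breeds was not tested. Library 9615 of MONT stood apart, with a median r of 0.959 to the other libraries, where the rest had 0.980 to 0.989. It had the highest value, 18.2, on the first principal component, which held 41.4% of the variance, and MONT library 1652 followed with 7.60. With both breeds fitted together, the coefficient of variation was 0.325 over the 11 libraries. It was 0.270 without cow 9615 and 0.246 without cows 9615 and 1652. Values without one or both of these cows are given beside results that moved when they were left out.

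**Figure D2:**
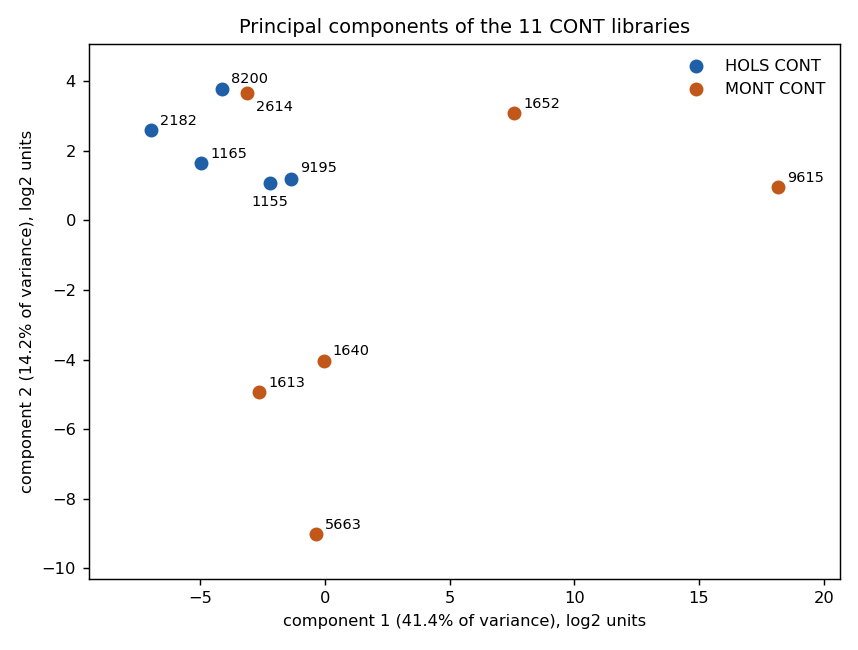
Position of the 11 CONT libraries on the first (x axis, 41.4% of the variance) and second (y axis) principal component of log2 normalized counts, with cow numbers beside the points. The 5 HOLS libraries lie between −6.95 and −1.34 on the first component, and MONT 9615 lies at 18.2.

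The normalized counts of miR-16a, which are counts scaled to a common library size by TMM, were 14759, 15794, 11368, 16041 and 15962 in HOLS cows 1155, 1165, 2182, 8200 and 9195. In the 6 MONT cows they ranged from 7116 to 10323 with a median of 8474. The groups did not overlap, although HOLS cow 2182 was near the highest MONT cow. The means were 14785 ± 1979 (SD, n = 5) and 8655 ± 1348 (SD, n = 6), a 1.71-fold difference with a 95% interval of 0.47 to 1.08 on the log2 scale. The adjusted p was 0.0415 by edgeR, and in an exact permutation test (two-sided) on log2 counts p was 0.00216, the smallest value that this test can give with 5 and 6 cows.

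For miR-186 the HOLS values were 75082, 78101, 78281, 75094 and 68016 in the same order of cows. The MONT values ranged from 32469, in cow 1652, to 56864 with a median of 44619. Again the lowest HOLS cow was above the highest MONT cow. The means were 74915 ± 4157 (SD, n = 5) and 44606 ± 9183 (SD, n = 6), a 1.68-fold difference with a log2 interval of 0.43 to 1.07 (edgeR adjusted p = 0.0415, exact permutation p = 0.00433). With its level, miR-186 was 21st of all miRNAs by mean normalized count, and miR-16a was 53rd.

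Both calls depended on the libraries included. Leaving out the CONT library of HOLS cow 1155, 1165, 8200 or 9195, or of MONT cow 1640, 1652 or 9615, ended both calls, and leaving out HOLS cow 2182 ended that of miR-186. The edgeR adjusted p was then 0.0505 to 0.114 for miR-16a and 0.0627 to 0.145 for miR-186. Their log2 fold changes stayed between 0.72 and 0.85 and between 0.67 and 0.83 in the 11 fits without a library. Without MONT cows 9615 and 1652 together, both were called, with a log2 fold change of 0.82 for miR-16a and 0.61 for miR-186 (edgeR adjusted p = 0.0248 for each).

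miR-16b differs little from miR-16a in sequence, so that reads may have been divided between them, and how the authors divided such reads is not given in the sources used here. Its values were 9211, 9159, 7635, 7214 and 8948 in HOLS and ranged from 4286 to 7041 with a median of 6659 in MONT. The groups did not overlap either. Its log2 fold change was 0.42 (SE 0.145) and missed the threshold, with an edgeR adjusted p of 0.152. The ratio of miR-16a to miR-16b was 1.49 to 2.22 in HOLS cows and 1.135 to 1.75 in MONT cows, and these ranges overlapped. In the RefSeq annotation MIR16A lies beside MIR15A and MIR16B beside MIR15B. The neighbours had log2 fold changes of 0.14 (miR-15a) and −0.13 (miR-15b, 0.073 without cows 9615 and 1652), and neither had an unadjusted p under 0.05. Of the 6 family members tested, 1 was called, which is miR-16a itself, beside 0.556% of all miRNAs tested. That call is therefore no separate sign of a family difference. The members also include miR-195 with 0.15 and miR-497 with 0.015, neither with an unadjusted p under 0.05. Of the 6, 5 were above 0, and the median was 0.14 beside −0.01 over all miRNAs.

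The next 5 miRNAs by p missed the threshold with an edgeR adjusted p of 0.0609 each. For miR-7, a repressor of growth factor receptor signalling with a copy in HNRNPK, HOLS had 216, 208, 174, 185 and 233 normalized counts. MONT ranged from 75.8 to 156 with a median of 115. The groups did not overlap, and the log2 fold change was 0.84 (SE 0.193). miR-362-5p, from a cluster within CLCN5, had 143, 177, 133, 108 and 172 in HOLS, and 67.1 to 116 with a median of 74.1 in MONT, where cow 2614 alone was above the lowest HOLS cow. Its log2 fold change was 0.87 (SE 0.207). Its other arm, miR-362-3p, had a log2 fold change of 0.14, and −0.082 without MONT cows 9615 and 1652.

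Of these 5, miR-1388-3p and miR-409a had their higher mean in MONT. For miR-1388-3p the values were 105, 155, 77.2, 80.4 and 137 in HOLS and 130 to 346 with a median of 233 in MONT. Here MONT cow 1613 was within the HOLS range and the other MONT cows were above it, and the log2 fold change was −1.15 (SE 0.276). The other arm, miR-1388-5p, had −0.94 (SE 0.367) with an edgeR adjusted p of 0.200, and −0.57 without cows 9615 and 1652. miR-409a, of the imprinted DLK1-DIO3 cluster, had a log2 fold change of −1.93 (SE 0.465) at low levels. Its HOLS values were 6.66 to 14.1 and its MONT values 3.53 to 56.2, with cow 5663 below all HOLS cows. miR-2284h-5p, of a family known from ruminants, had 10.0 to 14.1 in HOLS and 2.61 to 7.06 in MONT without overlap, and a log2 fold change of 1.05 (SE 0.254). At these low counts a few reads per library carry the difference, and a miRNA can pass the count filter through the breed where it is higher. DESeq2 called miR-7, miR-362-5p, miR-1388-3p and miR-409a, and limma-voom called miR-7. With edgeR, miR-7 and miR-1388-3p were called when MONT cow 1613 was left out (adjusted p = 0.0273 each), and miR-409a when MONT cow 5663 was left out (adjusted p = 0.00393). In MONT, these cows had the lowest miR-1388-3p and the lowest miR-409a. Leaving out any other single library called none of miR-7, miR-1388-3p and miR-409a.

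**Figure D3:**
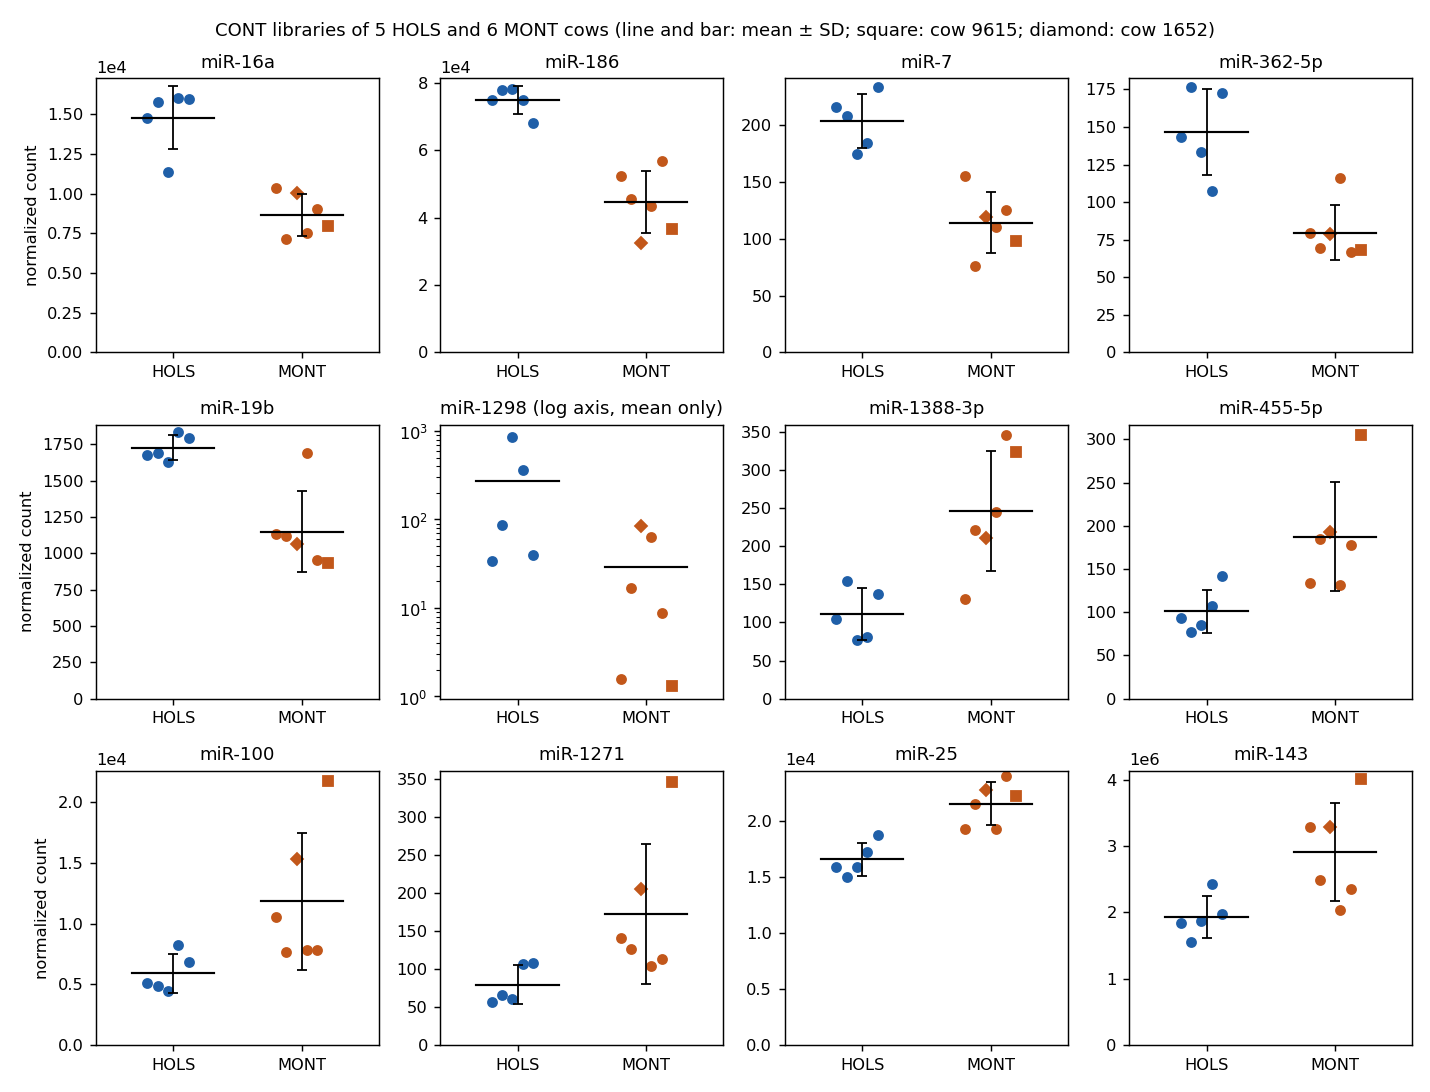
Normalized counts (y axis) of 12 miRNAs in the CONT libraries of 5 HOLS (blue) and 6 MONT (orange) cows, each point a cow, with the mean and SD in black and a log axis without SD for miR-1298. In the panels of miR-16a, miR-186, miR-7 and miR-25 the points of the breeds do not overlap, and cow 9615 (square) is the highest MONT cow for miR-100, miR-455-5p, miR-1271 and miR-143.

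The other 13 of the 20 miRNAs with the lowest p had edgeR adjusted p-values of 0.125 to 0.148. Those with a log2 fold change above 0 were miR-19b with 0.59, miR-19a with 0.74, miR-2285ba with 0.93, miR-11978 with 1.21 and miR-1298 with 3.15. Those below 0 were miR-25 with −0.38, miR-11977 with −0.81, miR-199c with −0.88, miR-455-5p with −0.89, miR-100 with −1.002, miR-1271 with −1.12, miR-504 with −1.17 and the predicted star strand chr21_22372_star with −1.18. Leaving out cows 9615 and 1652 brought several of the latter more than 1.5 times nearer to 0, to −0.46 for miR-11977, −0.55 for miR-199c, −0.51 for miR-100, −0.59 for miR-1271, −0.59 for miR-504 and −0.62 for chr21_22372_star. miR-25 and miR-11977 were the only miRNAs tested for which every MONT cow was above every HOLS cow. miR-25 had 15885, 15016, 15844, 17258 and 18771 in HOLS, and 19276 to 24012 with a median of 21876 in MONT, a 1.30-fold difference without overlap. miR-671 and miR-30e-5p, with miR-2284ab and miR-2285o, were the other miRNAs with all HOLS cows above all MONT cows, and none of the 4 was called.

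miR-1298 varied most from cow to cow among miRNAs with a mean of at least 100 normalized counts. Its HOLS values were 33.98, 86.4, 852, 364 and 39.7, and its MONT values ranged from 1.31 to 83.9 with a median of 12.7. HOLS cows 1155 and 9195 were within the MONT range, and cow 2182 was far above it. The log2 fold change of 3.15 had an SE of 1.01 and a 95% interval of 0.97 to 5.33, and its edgeR adjusted p was 0.148. Without HOLS cow 2182 the log2 fold change was 2.09, a 4.25-fold difference.

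The 5 most abundant miRNAs had no call, although they set much of the composition of the libraries. miR-143, made in smooth muscle and fibroblasts, was first with 23.8% of the normalized counts. It had 1839220, 1556780, 1866830, 2429630 and 1973340 normalized counts in HOLS, and 2038960 to 4010910 with a median of 2885110 in MONT, where cow 9615 was the highest. The log2 fold change was −0.59 (SE 0.193, edgeR adjusted p = 0.150), and −0.38 without cows 9615 and 1652. miR-10b, transcribed from the HOXD cluster, had 0.08 (SE 0.268), and its HOLS range of 572454 to 1276400 was close to its MONT range of 503344 to 1289100. The value for miR-10b moved to 0.28 without cows 9615 and 1652 and to −0.089 without HOLS cow 9195.

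The other 3 are known as miRNAs of the secretory epithelium. miR-148a, abundant in milk and a repressor of DNMT1, had 1083340, 1129160, 1232790, 1197660 and 986825 in HOLS and 265209 to 1162870 with a median of 889752 in MONT. Its neighbour in the genome, miR-148d, had 664967 to 879272 in HOLS and 182221 to 825184 in MONT. The lowest MONT value of both was that of cow 9615. The log2 fold changes were 0.48 (SE 0.290) and 0.46 (SE 0.298), with 95% intervals of −0.15 to 1.11 and −0.18 to 1.11. These were 0.30 and 0.27 without cow 9615, and 0.19 and 0.16 without cows 9615 and 1652. miR-30a-5p had 945599 to 1241840 in HOLS and 593213 to 1192700 in MONT, with a log2 fold change of 0.40 (SE 0.197, edgeR adjusted p = 0.260), and 0.21 without both cows.

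The miR-30 family and the miR-148 and miR-152 family had medians above 0. All 7 tested members of the miR-30 family were above 0, with a median log2 fold change of 0.35 beside −0.01 over all miRNAs. They include miR-30b-3p, the other arm of miR-30b-5p, which was scarce, with means of 11.4 in HOLS and 7.28 in MONT. Of the 7, 4 had an unadjusted p under 0.05 (miR-30c, miR-30d, miR-30e-5p and miR-30f) beside 8.61% of all miRNAs in that direction. miR-30e-5p had 40436, 39553, 38371, 45026 and 42602 normalized counts in HOLS and 25434 to 35858 with a median of 33589 in MONT. Its groups did not overlap, with a log2 fold change of 0.35 (SE 0.117, edgeR adjusted p = 0.151). When MONT cows 9615 and 1652 were left out, 7 of 7 were above 0, with a median of 0.27, and 2 had an unadjusted p under 0.05. That count of 4 also fell to 2 without cow 9615, 1652 or 1640 of MONT or cow 2182 of HOLS. It was 2 as well with library size only and with library sizes taken without miR-143, and 1 without HOLS cow 1165, 8200 or 9195. The miR-148 and miR-152 family had 5 of 5 members above 0 with a median of 0.26, and 5 of 5 with 0.19 without these cows. None of its members had an unadjusted p under 0.05 with all cows. miR-148c and miR-152 had nearly the same counts and are uncertain as separate values. miR-148a and miR-148d had nearly the same log2 fold change, and whether they share reads was not tested.

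**Figure D4:**
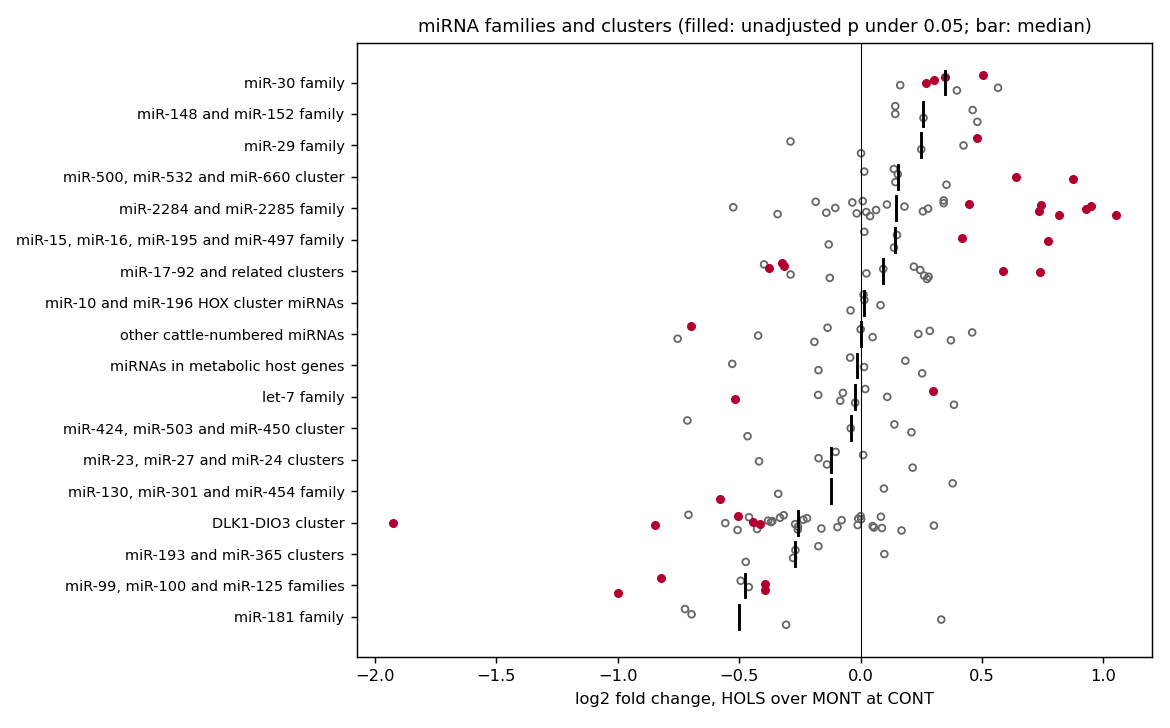
Log2 fold change of HOLS over MONT at CONT (x axis) of the tested members of 18 miRNA families, clusters and groups (y axis), each point a miRNA, filled where the unadjusted edgeR p was under 0.05, with a bar at the median. All 7 members of the miR-30 family, the scarce arm miR-30b-3p among them, lie right of 0. All 6 of the miR-99, miR-100 and miR-125 families lie left of it.

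The markers of epithelium were not uniform. The list holds 11 tested miRNAs, 8 above 0 and 3 below, with a median of 0.10. miR-141 and miR-200c, neighbours that maintain the epithelial state by repressing ZEB1 and ZEB2, had 0.72 (SE 0.274) and 0.60 (SE 0.279), the latter 0.30 without cows 9615 and 1652. miR-141 had 334055, 366506, 261259, 380870 and 291894 in HOLS and 113824 to 374571 with a median of 171374 in MONT, where only cow 5663 reached the HOLS values. It had an unadjusted p of 0.0215 by edgeR and an adjusted p of 0.189, which was 0.0382 without cow 5663. Leaving out any other single library did not call miR-141. miR-205, of the basal and myoepithelial layer, and miR-31 had −0.39 (SE 0.173) and −0.75 (SE 0.320), both with an unadjusted p under 0.05 and no call, and miR-31 had −0.40 without cow 9615. miR-200a, miR-200b, miR-182 and miR-96 had −0.07 to 0.10. Leaving out MONT cows 9615 and 1652 gave 5 members above 0 and 6 below, with a median of −0.09.

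The summed level of the epithelial markers ranged from 438685 to 543419 in HOLS and from 226327 to 548228 in MONT, with 226327 in cow 1652 and 233723 in cow 9615. The same cows were the highest for leukocytes, whose sum was 25214 to 41401 in HOLS and 27591 to 93366 in MONT, with 60738 in cow 1652, 93366 in cow 9615 and 52796 in cow 5663. All 8 leukocyte markers tested had a log2 fold change below 0, with a median of −0.38, and none was called. Of the 8, 3 were below 0 when cows 9615 and 1652 were left out, with a median of 0.08. miR-146b, induced by NF-kB signalling, had −1.60 (SE 0.548, edgeR adjusted p = 0.152) from 7068, 2508, 2698, 5174 and 7342 in HOLS and 5099 to 41224 with a median of 9807 in MONT, with 41224 in cow 9615. Without that cow its log2 fold change was −0.98. miR-142-5p, specific to blood cells, had −0.22 (SE 0.230), and −0.092 without cow 9615.

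The 7 markers of smooth muscle and fibroblasts were summed to 1568990 to 2446060 in HOLS and to 2052000 to 4044740 in MONT, again with the highest value in cow 9615. Here 6 of 7 were below 0 with a median of −0.59, and miR-143, miR-199a-3p and miR-199c had an unadjusted p under 0.05 beside 11.7% of all miRNAs in that direction. miR-145, the neighbour of miR-143 in the genome, had 0.27 (SE 0.254) and was the one above 0, and under upper quartile and cyclic loess scaling it was joined by another member. Leaving out cows 9615 and 1652 gave a median of 0.0025 with 3 of 7 below 0, and miR-145 then had 0.51. The endothelial marker miR-126-5p, within EGFL7, had 0.04 (SE 0.122) and 0.021 without cow 9615, and the sum of both its arms was 256882 to 350563 in HOLS and 255045 to 314650 in MONT. The 3 miRNAs of red blood cells were below 0 with a median of −0.33, which was −0.62 without these cows and turned to 0.07 under cyclic loess scaling, and none had an unadjusted p under 0.05. Of the 7 markers of other organs only miR-499 was tested, with 0.43 (SE 0.294) and 0.18 without cows 9615 and 1652, and the others had at most 15 counts in a library. The part of these cell types in the breed differences was not tested.

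**Figure D5:**
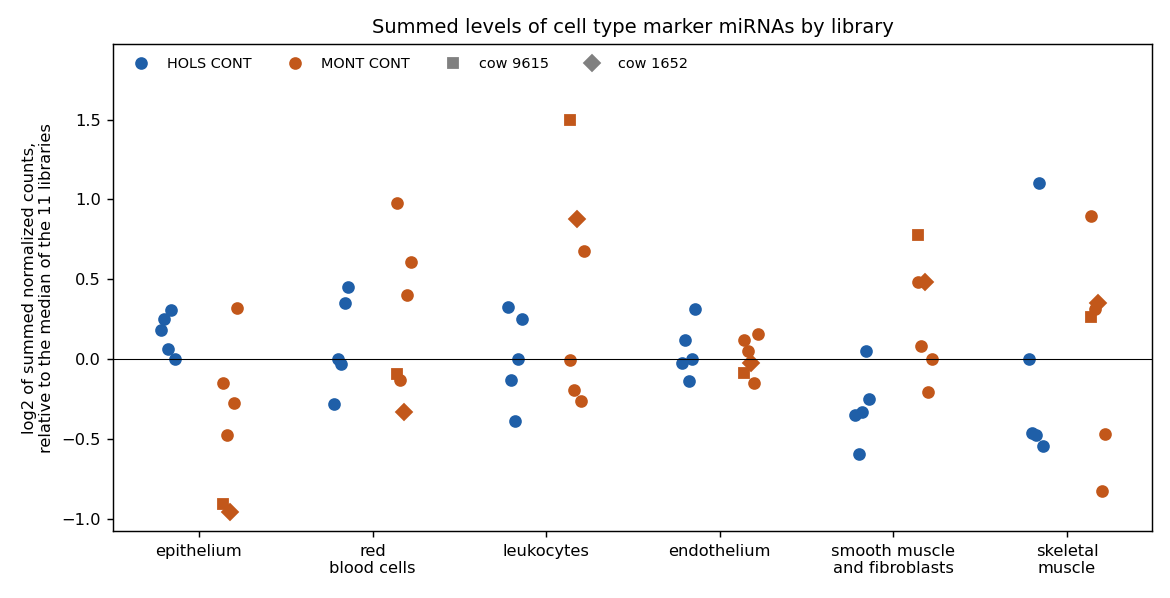
Summed normalized counts of the marker miRNAs of 6 cell types (x axis) in each CONT library, as log2 relative to the median of the 11 libraries (y axis), HOLS in blue and MONT in orange. Cows 9615 (square) and 1652 (diamond) are lowest for epithelium and highest for leukocytes.

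The miR-99, miR-100 and miR-125 families, whose members include a repressor of MTOR, had medians below 0. All 6 tested members were below 0, with a median of −0.48. Of these, 4 had an unadjusted p under 0.05 (miR-99a-3p, miR-99b, miR-100 and miR-125a) beside 11.7% of all miRNAs in that direction. miR-99a-3p is the scarcer arm of its pair. The abundant arm miR-99a-5p had −0.49 and, like miR-125b, an unadjusted p above 0.05. miR-100 had 5100, 4871, 4470, 8244 and 6834 in HOLS, and 7698 to 21714 with a median of 9201 in MONT, where cows 9615 and 1652 were highest. The log2 fold change was −1.002 (SE 0.296, edgeR adjusted p = 0.135). miR-99b had −0.82 (SE 0.277), miR-125a −0.40 (SE 0.161) and miR-125b −0.46 (SE 0.223). In the fit that leaves out cows 9615 and 1652, 6 of 6 were below 0, with a median of −0.27 and 1 unadjusted p under 0.05. There miR-99b had −0.34, miR-125a −0.23 and miR-125b −0.16. The count of 4 was 2 without cow 9615, 1652 or HOLS cow 2182, and also with all cows under upper quartile scaling.

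In the imprinted DLK1-DIO3 cluster, 26 of 33 tested miRNAs were below 0, with a median of −0.26, and 5 had an unadjusted p under 0.05, namely miR-379, miR-381, miR-409a, miR-410 and miR-654, beside 11.7% of all miRNAs with a higher level in MONT. miR-127, its most abundant member, had −0.51 (SE 0.295) and ranged from 53443 to 200937 in MONT, with the highest value in cow 9615. With cows 9615 and 1652 left out, 18 of 33 were below 0, with a median of −0.02 and 2 with an unadjusted p under 0.05, and with cow 9615 alone left out, 21 of 32 were below 0 with a median of −0.11 and 3 with such a p. In the 11 fits without a library this last count ranged from 2, without MONT cow 1652 or HOLS cow 1155 or 9195, to 9, without MONT cow 1613.

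Members of related clusters could lie on both sides of 0. Of the 15 tested miRNAs of the miR-17-92 and related clusters, known to promote proliferation, 9 were above 0 and 6 below, with a median of 0.09, which was −0.0094 without MONT cow 1613 and −0.065 without MONT cow 5663. miR-19b had 1677, 1691, 1629, 1836 and 1793 in HOLS and 935 to 1689 with a median of 1089 in MONT, where cow 2614 was within the HOLS range and the other MONT cows were below it. Its log2 fold change was 0.59 (SE 0.159, edgeR adjusted p = 0.125), and without cow 2614 it was called with 0.73 (edgeR adjusted p = 0.0145), as were miR-19a, miR-362-5p and miR-500 (edgeR adjusted p = 0.0229 each). None of these miRNAs was called when any other single library was left out. miR-17-5p and miR-20a had 0.26 (SE 0.131) and 0.25 (SE 0.148), neither with an unadjusted p under 0.05, and miR-92a had −0.32 (SE 0.128). MIR19B and MIR92A-1 lie beside MIR17, and MIR19B-2 and MIR92A-2 lie beside MIR106A. The counts of miR-19b and miR-92a may therefore not be those of one cluster alone. In the cluster within MCM7, miR-25 had −0.38 (SE 0.112), miR-93 −0.32 (SE 0.141) and miR-106b −0.13 (SE 0.142), the last 2 with −0.16 and −0.011 without cows 9615 and 1652. The cluster within CLCN5 had 7 of 7 tested members above 0 with a median of 0.15, led by miR-362-5p and by miR-500 with 0.64 (SE 0.217), whereas its abundant member miR-660 had 0.14 (SE 0.185) and 0.011 without cow 9615. In the fit that leaves out cows 9615 and 1652, 3 of these 7 were above 0.

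Of 113 listed members of the ruminant miR-2284 and miR-2285 family, 24 passed the filter on low counts. Of these 17 were above 0, with a median of 0.14, and 7 had an unadjusted p under 0.05, each with a higher level in HOLS, beside 8.61% of all miRNAs in that direction. Without cow 9615, 13 of 24 were above 0 and 6 had such a p. The 7 were miR-2284ab, miR-2284h-5p, miR-2285af, miR-2285ba, miR-2285dh, miR-2285g and miR-2285o, with mean normalized counts of 11.7 to 166 in HOLS. The filter uses breed as the group, so that a scarce member can pass it through the breed where it is higher. miR-2284h-5p, with means of 11.7 in HOLS and 5.56 in MONT, is a scarce member of that kind. The counts above are therefore no independent sign of a family difference. Members of this family are near copies of each other, so that their separate counts are uncertain. Among other miRNAs that lead a list, miR-221 had −0.65 (SE 0.268), miR-130a −0.58 (SE 0.223), miR-181a −0.31 (SE 0.183) and miR-191 0.38 (SE 0.196). Without cow 9615, which had the highest miR-221 level, miR-221 had −0.33 and miR-130a −0.36. Without cows 9615 and 1652 they had −0.21 and −0.29, and miR-191 had 0.57.

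Beside the CONT values, the same test at REST called 58 of 378 miRNAs (15.3%). miR-16a had 19603 ± 4426 (SD, n = 5) in HOLS and 9566 ± 1395 (SD, n = 6) in MONT at REST, where the log2 fold change was 1.04 (edgeR adjusted p = 0.00764). miR-186 had 84056 ± 7441 (SD, n = 5) and 49350 ± 6877 (SD, n = 6), where it was 0.77 (edgeR adjusted p = 0.00764). For miR-7 the REST log2 fold change was 1.28 and for miR-1388-3p −1.19, with edgeR adjusted p-values of 0.00850 and 0.0156. The libraries at REST come from the same cows and are no independent samples. A call at REST and none at CONT is not a difference between the periods: when the breed difference at REST was tested against that at CONT over the 22 libraries, with the cow as a block, 0 of 388 miRNAs (0%) passed the edgeR threshold, and 5 (1.29%) had an unadjusted p under 0.05. For miR-16a this change was 0.19 (edgeR adjusted p = 0.985) and for miR-186 −0.05 (edgeR adjusted p = 0.994).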

How the data were processed

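Small RNA libraries (TruSeq) were sequenced, and the authors removed adapters, kept reads by size, used ncPRO-seq for quantification and annotation and miRDeep2 to align reads to the bovine genome and miRBase. The deposited counts per miRNA are whole numbers that the authors did not normalize, in a table for each breed. The submitters' processing notes name bcl2fastq 2.17.1.14 and DESeq2 1.18.1. The deposited normalized counts, scaled within a breed, and the authors' fold changes and p-values were not used.

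The tables were joined by the 796 miRNA names, and the 5 HOLS and 6 MONT CONT libraries were fitted together with edgeR 4.0.16 (R 4.3.3): TMM, filterByExpr (minimum count 10), quasi-likelihood F test of breed, Benjamini-Hochberg adjustment over 360 miRNAs and a threshold of 0.05. SE is the log2 fold change divided by the square root of F. Exact permutation tests used log2(normalized count + 1). P-values rest on 1 library a cow. Of the miRNAs tested, 7 pairs had equal counts in every library. The analysis was tested on simulated data. Gene neighbours come from RefSeq (ARS-UCD2.0), by name only, since the authors used another build.

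The labels give the CONT and REST library of each cow the same number. Their deviations correlated with r of 0.24 to 0.51 in HOLS cows and 0.12 to 0.69 in MONT cows, except −0.20 in cow 9615. The numbers pair no HOLS cow with a MONT cow.

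The comparison, the 29 lists and the alternatives (DESeq2 1.42.0, limma-voom 3.58.1, other scalings and filters, libraries left out, all 22 libraries) were chosen with earlier results of these data known. Named are the miRNAs called, those with the lowest p up to 20, the 5 most abundant, the most abundant of lists, and other arms or near copies. miR-15a, miR-15b, miR-17-5p, miR-20a, miR-30e-5p, miR-31, miR-93, miR-99b, miR-106b, miR-125b, miR-145, miR-146b, miR-199a-3p, miR-200c, miR-205, miR-379, miR-500, miR-671 and the members named in counts were chosen after their values were seen.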

Additional observations from a re-analysis of the deposited data

Results flagged for a closer look

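In 13 of the 120 groups of values of single miRNAs examined (60 miRNAs in each breed), the highest or lowest cow was set apart from the others by Dixon's ratio at the 95% level. Independent groups would give about 6 by chance. These groups share the same cows, and many miRNAs were chosen by p or after their values were seen. The 13 beside the 6 is therefore no test. In HOLS, cow 2182 had the lowest miR-16a at 11368 (the others 14759 to 16041) and the highest miR-499 at 91.8 (the others 45.5 to 56.6). HOLS cow 8200 had the highest miR-409a at 14.1 (the others 6.66 to 8.19).

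Of the 10 in MONT, 5 were values of cow 9615. This cow was highest for miR-455-5p at 306 (the others 131 to 192), miR-146b at 41224 (the others 5099 to 18162), miR-31 at 5220 (the others 1341 to 2403), miR-221 at 4851 (the others 1475 to 2517) and miR-130a at 5188 (the others 1991 to 2968). The other 5 were values of cow 2614. It was highest for miR-362-5p at 116 (the others 67.1 to 79.4), miR-19b at 1689 (the others 935 to 1135) and miR-500 at 153.6 (the others 69.8 to 98.8). It was lowest for miR-16b at 4286 (the others 6230 to 7041) and for miR-181a at 112624 (the others 204824 to 244317).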

How the results depend on the processing

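The number of miRNAs past the threshold, 2 with edgeR and all of them higher in HOLS, was 20 with DESeq2 (10 in each direction), 3 with limma-voom, 1 with library size only or upper quartile scaling (1 higher in HOLS) and 7 at a threshold of 0.10 (5 higher in HOLS and 2 in MONT). It was 0 with library sizes taken without miR-143, where edgeR gave 72 unadjusted p under 0.05. Over all 22 libraries it was 29 without a replicate block (17 and 12), 14 with the cow as a replicate block (11 and 3) and 86 with both libraries of a cow summed (40 and 46), settings that also use REST. Without MONT cows 9615 and 2614 it was 6 (6 and 0). Without cows 9615 and 1652, a setting chosen after seeing the data, it was 4 (2 and 2), the latter miR-33b and miR-2898. Leaving out 1 CONT library at a time gave 0 to 6 calls, 0 to 6 higher in HOLS and 0 to 1 higher in MONT. The 6 came without MONT 2614, and 0, with 52 to 67 unadjusted p under 0.05, without HOLS 1155, 1165, 8200 or 9195 or MONT 1640, 1652 or 9615. miR-16a was called in 19 and miR-186 in 16 of 27 refits, with edgeR, DESeq2 or limma adjusted p of 0.000136 to 0.114 and 0.000457 to 0.145. Both kept their direction in each.

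Among the named miRNAs, some changed sign, most of them near 0 in the reported fit. Under cyclic loess scaling miR-10b had −0.039 and miR-126-5p −0.033. With summed libraries miR-486 had 0.18. Without cows 9615 and 2614 miR-15b had 0.082, miR-106b 0.0042 and miR-126-5p −0.00592. Without cows 9615 and 1652 miR-15b had 0.073, miR-362-3p −0.082, miR-455-3p 0.064, miR-142-5p 0.049, miR-660 −0.024 and miR-127 0.0077. Of these, miR-455-3p and miR-127 were not near 0 with all cows, at −0.52 and −0.51. With 1 library left out, the log2 fold change ranged from −0.089 to 0.24 for miR-10b, from −0.029 to 0.087 for miR-126-5p and from −0.033 to 0.26 for miR-362-3p. Of all refits of single miRNAs, 1484 kept the side of the threshold and the direction, 97 passed the threshold where the reported fit did not, and 19, all of miR-16a or miR-186, no longer passed it. The cause of these changes was not tested. No pairing of HOLS with MONT cows exists, so the block joins only the 2 libraries of a cow. With 5 and 6 cows and a median SE of 0.25, small differences were not detectable, and a p above the threshold does not show equal levels.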

Other observations

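The spread among cows of a breed was described for the 215 tested miRNAs with a mean normalized count of at least 100, as the SD of log2 normalized counts. The median SD was 0.214 in HOLS and 0.429 in MONT, where it includes cow 9615, whose library stood apart. The 6 most variable of each breed had miR-1298, miR-223, miR-885 and miR-146b in common. miR-1298 had an SD of 2.02 in HOLS and 2.22 in MONT. miR-223, a miRNA of neutrophils and other myeloid cells, had 1.01 and 1.34, with 383 normalized counts in HOLS cow 1155 beside 71.9 to 84.7 in the other HOLS cows, and 710 in MONT cow 9615 beside 48.8 to 135.99 in the other MONT cows. miR-885 ranged from 120 to 674 in HOLS and from 67.9 to 619 in MONT. miR-451, a miRNA of red blood cells, was among the 6 in MONT, with 5961 in cow 1613 and 5649 in cow 2614 beside 999 to 1285 in the other MONT cows, whereas it was 1620 to 2450 in HOLS. These miRNAs were chosen by their spread, and no test was made.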
